A study of Homo sapiens with 4 samples.

Results

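The 10 genes of the interleukin-1, IL6 family and colony-stimulating cytokines (IL1A, IL1B, IL1RN, IL6, IL11, IL18, IL33, LIF, CSF2 and CSF3) were read from Agilent microarrays of 4 head and neck squamous cell carcinoma (HNSCC) cultures. Members were taken by gene name: every probe that the array design assigns to one of the 10 symbols was kept, which gave 14 of the 58201 probes and 10 of the 43305 genes on the array. The parental lines HN4 and HN30 are long-established lines from human HNSCC, and HN4_CR and HN30_CR are the cisplatin-resistant lines derived from them by raising the drug concentration step by step, also written HN4/DDP and HN30/DDP. All 4 cultures were grown in DMEM with 10% FBS. The resistant cultures were also kept in 20 μM cisplatin, a platinum drug that crosslinks DNA, for 48 h, so a stable resistant state and the presence of the drug cannot be told apart. Each culture was measured on 1 array, so no resistant line had a replicate, and each difference below is that of 1 array against 1 array. All 4 arrays lay on 1 slide and were scanned together.

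Interleukin-1 alpha and beta are alarm cytokines that bind the same receptor and drive the NF-kappaB transcription factor, and squamous epithelium stores interleukin-1 alpha. The IL6 family shares the receptor chain gp130 (gene IL6ST), which passes the signal to JAK kinases and STAT3. The colony-stimulating factors act mainly on myeloid cells, and carcinoma cells that secrete them are known to shape the myeloid cells around a tumour. Most of these genes are kept low in resting cells, are switched on by NF-kappaB, AP-1 and C/EBP factors at the promoter, and give short-lived mRNAs.

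The promoters of IL6, CSF2 and IL11 are shown, 3 of the genes that stood past the threshold in one of the lines. IL1RN and IL33 also stood past it in one line and have windows, but are not shown. The 3 promoters shown were chosen after the values were seen. Each is the stretch of 250 bases before the transcript start, 5′ to 3′ on the strand of the gene, from RefSeq on GRCh38.p14, and capitals mark the motifs found by letter search on both strands. They lie at chr7:22726950-22727199 (+ strand), chr5:132073539-132073788 (+ strand) and chr19:55370464-55370713 (- strand), respectively.
IL6: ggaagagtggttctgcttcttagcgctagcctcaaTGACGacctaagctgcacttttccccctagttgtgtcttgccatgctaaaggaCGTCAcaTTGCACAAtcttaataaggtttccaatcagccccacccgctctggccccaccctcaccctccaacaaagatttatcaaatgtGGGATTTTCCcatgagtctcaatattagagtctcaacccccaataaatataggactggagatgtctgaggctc
CSF2: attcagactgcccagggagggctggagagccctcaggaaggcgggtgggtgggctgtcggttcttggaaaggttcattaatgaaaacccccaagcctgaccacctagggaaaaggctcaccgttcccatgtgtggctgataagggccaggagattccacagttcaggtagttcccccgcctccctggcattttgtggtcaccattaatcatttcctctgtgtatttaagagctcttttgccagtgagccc
IL11: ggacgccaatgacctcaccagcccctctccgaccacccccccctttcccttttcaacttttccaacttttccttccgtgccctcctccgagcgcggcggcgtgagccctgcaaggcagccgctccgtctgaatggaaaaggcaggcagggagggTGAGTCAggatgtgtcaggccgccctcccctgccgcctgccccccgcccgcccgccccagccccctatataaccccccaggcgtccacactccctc
The IL6 capitals are, from left to right, the core of a cyclic AMP response element (TGACG), the same letters on the opposite strand, a C/EBP match (TTGCNNAA) and an NF-kappaB match. The capitals in IL11 are a match to AP-1 (TGANTCA). The CSF2 stretch held no match to any of the searched motifs.

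Windows from 250 bases before to 50 after the start were given for 7 of the 10 genes, 11 windows in all since a gene can have several starts. IL18, LIF and CSF3 had none. The NF-kappaB match was present in 1 of the 11 windows (IL6) and in 5.91% of the 35116 windows of the whole reference. The AP-1 letters were present in 4 of 11 (IL1A, IL1RN and IL11) and in 7.71% of all windows. The core TGACG stood in 3 of 11 (IL1A and IL6) and in 24.6% of all windows. The C/EBP letters stood in 2 of 11 (IL1B and IL6) and in 10.5% of all windows. A TATAAA box stood in 2 of 11 (IL1A and IL1RN) and in 11.5% of all windows. Windows of 1 gene can overlap. The motifs can overlap, and a match of letters is a description of the sequence only.

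The following 3 probes lie in coding sequence and show what the array measured for CSF2, IL18 and the dimmer of the LIF probes. They are 60 bases long, printed in the sense of the mRNA, and lie on hg19 at chr5:131411452-131411511, chr11:112020811-112020870 and chr22:30639661-30639720.
CSF2: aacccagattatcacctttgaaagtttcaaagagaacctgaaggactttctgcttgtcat
IL18: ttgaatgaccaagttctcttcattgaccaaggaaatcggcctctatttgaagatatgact
LIF: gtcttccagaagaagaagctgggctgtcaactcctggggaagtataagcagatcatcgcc
IL1RN, IL6, LIF and CSF3 had 2 probes each and the other 6 genes had 1. A gene with 2 probes was represented by the probe with the higher mean over the 4 arrays, and the other is given beside it.

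Between 55.3% and 63.6% of the 60901 spots that were not controls stood well above background on an array, most of them on HN30_CR, and no such spot was saturated. The 75th percentile of signal ran from 444 to 496. Levels are given as log2 of the background-subtracted signal minus this percentile of the same array, so that 0 is the level of the 75th percentile. The scanner SD is the error that the scanner software assigns to a spot. It covers the reading of a spot and not the spread between cultures. Of the squamous markers, 8 of 8 stood well above background on HN4, HN4_CR and HN30 and 7 on HN30_CR, where KRT6A was not well above background. Their summed signal was 91.9 to 128 times the 75th percentile, most of it from EPCAM and CDH1. In HN4_CR, 3 were higher (KRT6A, KRT17 and KRT14, by 3.32, 3.29 and 2.33) and KRT5 was lower (-4.05), and in HN30_CR KRT6A was at least 183-fold lower. By the same threshold, 2.24% of all genes were higher and 1.36% lower in HN4_CR, and 5.48% and 1.80% in HN30_CR. Of 7 fibroblast markers, 2 (COL1A1 and PDGFRB) stood well above background on each array, with a summed signal of 0.402 on HN4, 1.03 on HN4_CR, 0.231 on HN30 and 0.778 on HN30_CR. COL1A1 differed by 1.73 in HN4_CR and by 2.43 in HN30_CR, and PDGFRB by -0.01 and 0.63, while a second PDGFRB probe gave -0.78 and 4.77, each against an array (HN4_CR and HN30) where it was not well above background. The other 5 were not well above background on any array. Of 6 measured leukocyte markers, 3 stood well above background on each parental array and 4 on each resistant array. Their summed signal was 6.43 on HN4, 9.52 on HN4_CR, 3.74 on HN30 and 40.0 on HN30_CR, most of it CD14. Of the 6, 1 was higher in HN4_CR (CD163, at least 1.40-fold, since HN4 was not well above background) and 2 in HN30_CR (CD14 and ITGAM, by 3.49 and 2.06). ITGAM differed by 1.53 in HN4_CR. CD3E, a T cell marker, was well above background on HN30_CR alone, at -4.16, and MS4A1, a B cell marker, on no array. The 4 endothelial markers summed to 0.224 to 0.317. In HN4_CR, VWF was at least 5.37-fold higher by the probe that represents it (a second probe differed by -0.04) and PECAM1 at least 2.05-fold lower. The part of these other markers in the results below was not tested. In bulk RNA, fewer cells that express a gene and less RNA per cell cannot be told apart.

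The first comparison asked which of the cytokine genes differed between HN4_CR and HN4. A gene counted as higher when its log2 difference was above 2 and the resistant array had a signal well above background. It counted as lower when the difference was below -2 and the signal of the parental array was well above background. In HN4_CR, 1 of the 10 genes (IL1RN, the interleukin-1 receptor antagonist) was higher and 1 (IL6) was lower. Over all 43305 genes, 2.24% were higher and 1.36% were lower. At a log2 difference of 1, 2 genes were higher (IL1RN and IL11) and 3 were lower (IL1A, IL6 and IL18), where all genes gave 5.77% and 5.36%. The median difference was -0.43 over the 10 genes and -0.21 over all genes. All genes include those dim on both arrays, which could not be counted, so the shares of all genes lie below those among genes with a signal. Over the 26853 genes well above background on 1 or both arrays, the median was -0.08.

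The second comparison asked the same of HN30_CR and HN30. Here 2 of 10 genes were higher (IL11 and IL33) and 2 were lower (CSF2 and CSF3, the granulocyte-macrophage and granulocyte colony-stimulating factors), where all genes gave 5.48% higher and 1.80% lower. At a log2 difference of 1, 3 genes were higher (IL11, IL18 and IL33) and 2 lower, against 12.9% and 8.67% of all genes. The median difference was 0.08 over the 10 genes and -0.07 over all genes. Over the 28330 genes well above background on 1 or both arrays the median was 0.06, near that of the 10 genes. The shares of all genes again include genes dim on both arrays. With scaling to the median of each array the median over all genes moved from -0.07 to -0.49, and the cytokine median from 0.08 to -0.34, so the sign of the cytokine median in HN30_CR depended on the scaling.

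**Figure D1:**
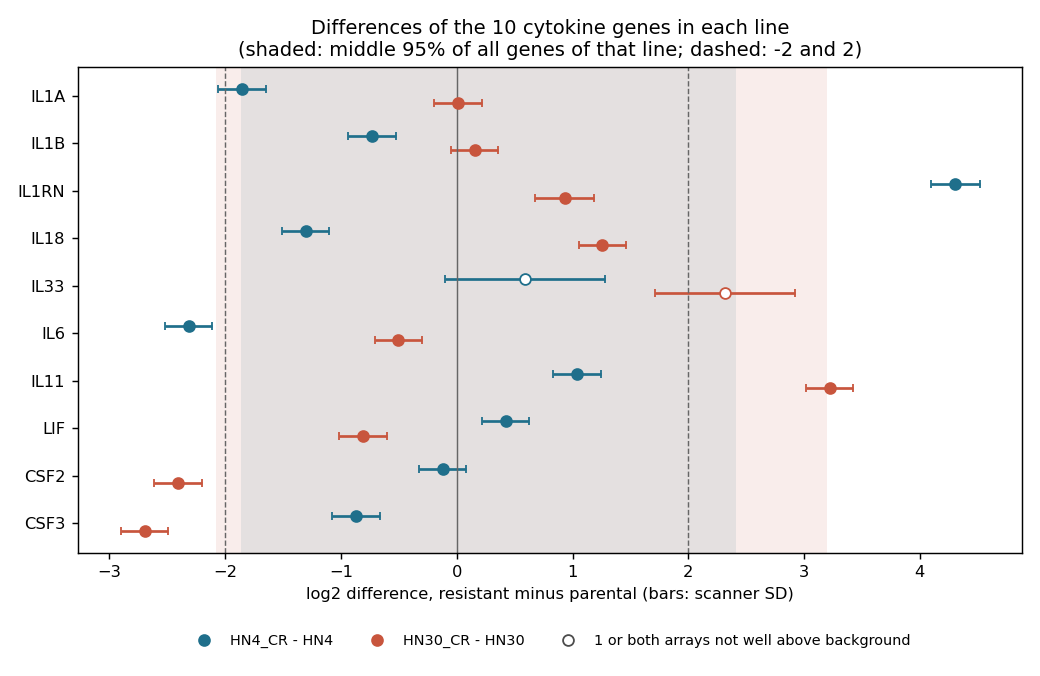
Log2 difference of each cytokine gene (y axis) between the resistant and the parental array of each line (x axis), with the scanner SD as bars, open points where an array was not well above background, dashed lines at -2 and 2, and shaded bands for the middle 95% of all genes of each line. IL1RN stands at 4.31 in HN4_CR and 0.93 in HN30_CR, while CSF2 and CSF3 stand at -2.41 and -2.70 in HN30_CR.

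The plot of the 10 differences shows these genes spread to both sides of 0 in each line. The middle 95% of genes with a signal well above background in the pair ran from -1.87 to 2.42 in HN4_CR and from -2.08 to 3.20 in HN30_CR, so the band was wider in HN30_CR. IL1RN and IL6 lay outside the band of HN4_CR. IL11, CSF2 and CSF3 lay outside the band of HN30_CR, and IL33 lay inside it.

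Of the interleukin-1 agonists, IL1A encodes the form that is active as a precursor and is held in the nucleus and at the membrane. Its probe (chr2:113532362-113532421, hg19) read 4.09 on HN4, 2.23 on HN4_CR, 4.36 on HN30 and 4.37 on HN30_CR on the log2 scale. HN4_CR was the low array, and the other 3 lay close together. The log2 difference was -1.86 in HN4 cells, with a scanner SD of 0.204, or 3.62-fold lower, and 0.01 in HN30 cells. The HN4_CR value stood just inside the threshold of -2 and was not counted as lower.

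IL1B encodes the secreted agonist, which is cut from its precursor by caspase-1. Its probe (chr2:113587429-113587488) read 6.60, 5.87, 7.13 and 7.28 on HN4, HN4_CR, HN30 and HN30_CR. HN4_CR was again the lowest array, with a log2 difference of -0.73, and the HN30 pair differed by 0.15, less than the scanner SD of 0.204. For IL1A and IL1B, the sign of the HN30_CR difference changed with the scaling, from -0.41 and -0.27 with median scaling to 0.53 and 0.53 with quantile normalization.

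IL1RN encodes the antagonist that occupies the interleukin-1 receptor without signalling. Its brighter probe (chr2:113891531-113891590) read -1.87 on HN4, 2.44 on HN4_CR, -3.57 on HN30 and -2.64 on HN30_CR. HN4_CR stood apart above the other 3 arrays. The log2 difference was 4.31 in HN4_CR, with a scanner SD of 0.208, or 19.8-fold, and 0.93 in HN30_CR. The dimmer probe (chr2:113890639-113890698), which lies further 5′ in the same transcript, read -3.36, -2.16, -3.55 and -3.52. Both probes had HN4_CR as the high array, but the difference of the dimmer probe was 1.20, and the mean of both probes gave 2.75. Of the 26853 genes well above background on HN4 or HN4_CR, 0.506% had a larger positive difference than the brighter IL1RN probe.

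IL18 encodes a cytokine that is cut by caspase-1 like interleukin-1 beta and drives interferon gamma production by lymphocytes. Its probe, printed above, read 2.48, 1.17, 1.14 and 2.40 on HN4, HN4_CR, HN30 and HN30_CR. The lines went opposite ways: HN4_CR was lower than HN4 by a log2 difference of -1.30, and HN30_CR was higher than HN30 by 1.26, each with a scanner SD of 0.204. The parental HN4 and the resistant HN30_CR therefore lay close together, as did HN4_CR and HN30.

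IL33 encodes a nuclear alarm cytokine of epithelial cells that acts through the receptor ST2 (gene IL1RL1). Its probe (chr9:6257372-6257431) read -5.71 on HN4, -5.12 on HN4_CR, -5.54 on HN30 and -3.22 on HN30_CR, and was well above background only on HN30_CR. Because HN30 had no signal well above background, the difference is a bound, and IL33 was at least 2.64-fold higher in HN30_CR than in HN30. The measured log2 difference was 2.32, with a scanner SD of 0.605. The count of IL33 as higher rested on the dim HN30 signal, since with dim signals set to the lowest signal well above background the difference was 1.40. ST2 itself was not well above background on any array.

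**Figure D2:**
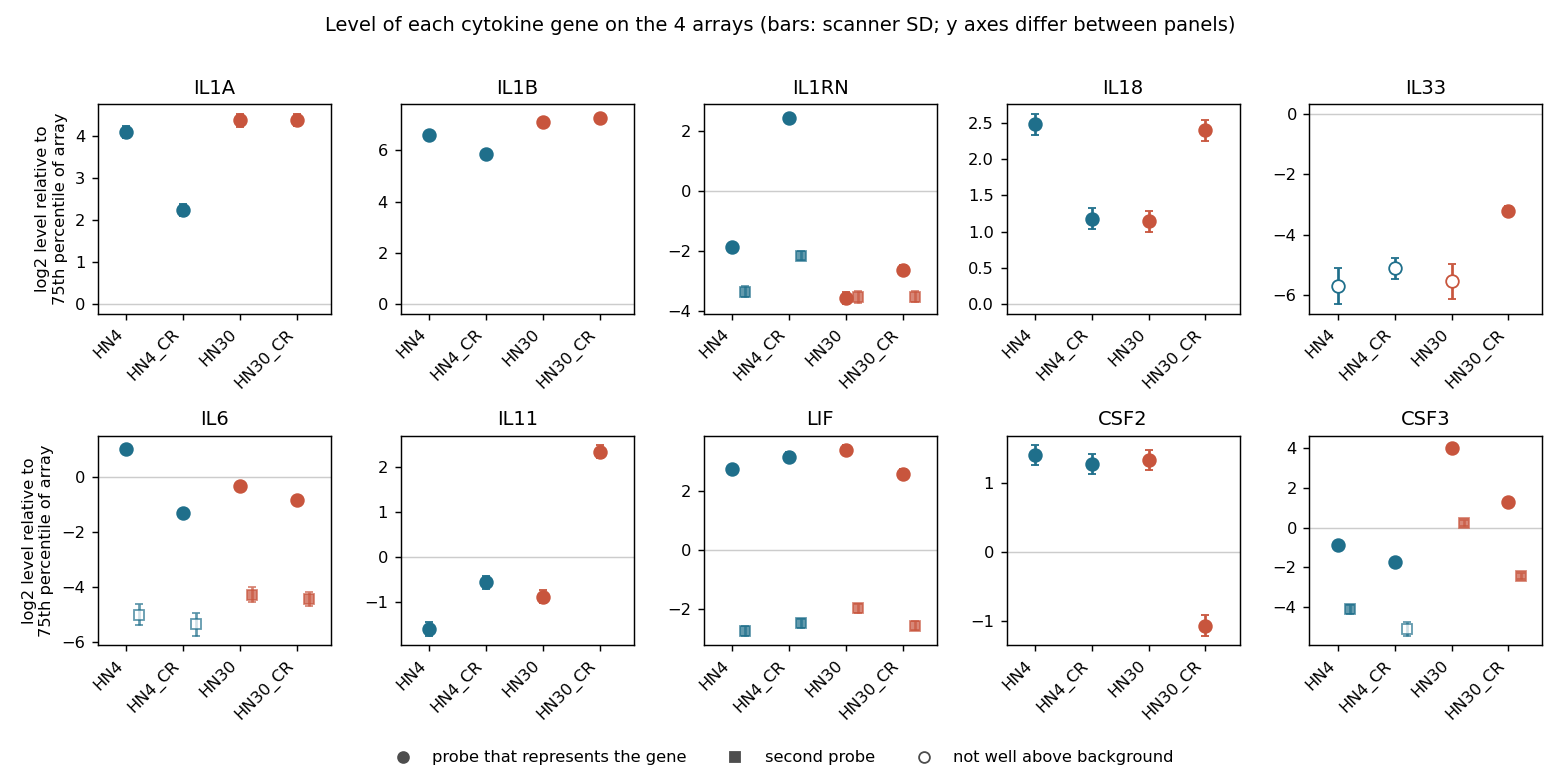
Log2 level of each cytokine gene (y axis, relative to the 75th percentile of the array, with its own range in each panel) on the 4 arrays (x axis), with scanner SD as bars, circles for the probe that represents the gene, squares for a second probe, and open symbols for signals not well above background. IL1RN is high on HN4_CR alone at 2.44, and IL11 is high on HN30_CR alone at 2.34.

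The plot of levels sets the genes side by side on all 4 arrays. Levels of different genes in it come from different probes and are not comparable with each other. Within a gene, the array order differed between members: HN4_CR was the highest array for IL1RN and the lowest for IL1A, IL1B, CSF3 and the brighter IL6 probe, and HN30_CR was the highest for IL1A, IL1B, IL11 and IL33 and the lowest for CSF2 and for the brighter LIF probe. For IL1A and IL1B the HN30 array lay within the scanner SD of the difference from HN30_CR. For the brighter LIF probe the HN4 array did too, at 2.73 against 2.57 on HN30_CR, and the dimmer LIF probe was lowest on HN4.

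Of the IL6 family ligands, IL6 encodes the cytokine that drives the acute-phase response through STAT3. Its brighter probe (chr7:22771207-22771266) read 1.00 on HN4, -1.31 on HN4_CR, -0.34 on HN30 and -0.84 on HN30_CR. HN4 was the high array and HN4_CR the low one. The log2 difference was -2.32 in HN4_CR, with a scanner SD of 0.205, or 4.98-fold lower, and -0.50 in HN30_CR. The second probe (chr7:22769363-22769422), designed to a predicted transcript, was not well above background on HN4 or HN4_CR and read -4.29 on HN30 and -4.46 on HN30_CR. With the mean of both probes the HN4_CR difference was -1.33 and IL6 was no longer counted as lower. Of the genes well above background in the HN4 pair, 1.68% had a more negative difference than the brighter IL6 probe.

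IL11 encodes an IL6 family ligand that is induced by TGF-beta and acts on stromal and epithelial cells. Its probe (chr19:55875788-55875847) read -1.60 on HN4, -0.57 on HN4_CR, -0.89 on HN30 and 2.34 on HN30_CR. HN30_CR stood apart above the other 3. The log2 difference was 1.04 in HN4_CR and 3.22 in HN30_CR, with a scanner SD of 0.205, or 9.33-fold in HN30_CR. IL11 was above its parental array in both lines, and 2.47% of 28330 genes had a larger positive difference in HN30_CR.

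LIF encodes leukemia inhibitory factor, which signals through its receptor LIFR and gp130. Its brighter probe (chr22:30636713-30636772) read 2.73, 3.15, 3.38 and 2.57 on HN4, HN4_CR, HN30 and HN30_CR. The lines again went opposite ways, with log2 differences of 0.42 in HN4_CR and -0.81 in HN30_CR, each with a scanner SD of 0.204. The dimmer probe, printed above, read -2.73, -2.48, -1.96 and -2.56, with differences of 0.25 and -0.60. Both probes gave the same signs.

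Of the colony-stimulating factors, CSF2 encodes GM-CSF, which supports granulocytes, macrophages and dendritic cells. Its probe read 1.40 on HN4, 1.28 on HN4_CR, 1.34 on HN30 and -1.07 on HN30_CR. The first 3 arrays lay within 1 scanner SD of each other, and HN30_CR was the low array. The log2 difference was -0.12 in HN4_CR and -2.41 in HN30_CR, with a scanner SD of 0.205, or 5.30-fold lower in HN30_CR. In HN30_CR, 1.50% of genes had a more negative difference.

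CSF3 encodes G-CSF, which drives the production of neutrophils. Its brighter probe (chr17:38173710-38173769) read -0.88 on HN4, -1.75 on HN4_CR, 3.98 on HN30 and 1.28 on HN30_CR. Both HN30 arrays lay above both HN4 arrays, and each resistant array lay below its parental array. The log2 difference was -0.87 in HN4_CR and -2.70 in HN30_CR, with scanner SDs of 0.207 and 0.204, or 6.49-fold lower in HN30_CR. The second probe (chr17:38173251-38173310) read -4.11 on HN4, 0.25 on HN30 and -2.42 on HN30_CR, and was not well above background on HN4_CR. Its HN30_CR difference was -2.66, close to that of the brighter probe. In HN30_CR, 1.04% of genes had a more negative difference than CSF3.

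Since each resistant line was derived from its parental line and is set against it above, the remaining contrasts describe the lines themselves, and they share arrays with the comparisons above. Between the parental lines, 1 of 10 genes was higher in HN30 than in HN4 (CSF3, by a log2 difference of 4.86, or 29.0-fold) and 0 were lower, where 0.540% and 1.14% of all genes passed. IL1RN, IL6 and IL18 differed by -1.70, -1.34 and -1.34. Only 0.0541% of 25889 genes had a larger positive difference than CSF3 between these parental arrays. Between the resistant lines, 3 of 10 genes were higher in HN30_CR than in HN4_CR (CSF3, IL11 and IL1A, by 3.03, 2.90 and 2.14) and 2 were lower (IL1RN and CSF2, by -5.07 and -2.35), where 3.77% and 1.75% of all genes passed. The IL1RN difference was 33.7-fold.

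A contrast with 2 arrays on each side sets HN4_CR and HN30_CR against HN4 and HN30, and the fit held a term for the line. limma left 1 residual degree of freedom for it. With Benjamini-Hochberg adjustment over 29521 genes, 0% of genes had an adjusted p under 0.05, and 2537 genes had an unadjusted p under 0.05. The smallest adjusted p was 0.382. None of the 10 cytokine genes passed. The mean log2 difference of IL1RN was 2.62 ± 0.874 (moderated SE of limma, 2 lines), with a limma adjusted p of 0.548. That of IL11 was 2.13 ± 0.642, with a limma adjusted p of 0.525. That of CSF3 was -1.78 ± 0.590, with a limma adjusted p of 0.545. IL6 had a mean of -1.41 ± 0.569, with a limma adjusted p of 0.600. limma moderates each SE with the spread of other genes, so none of these SEs is the spread between the 2 lines alone. For IL1RN the lines gave 4.31 and 0.93. The differences of IL1RN and IL11 were positive in 2 of 2 lines, and those of CSF3 and IL6 negative in 2 of 2. IL18 and LIF, whose lines went opposite ways, had means of -0.02 and -0.19.

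The receptors of these cytokines were read from lists chosen with earlier results of these data known. For each list counted from here on, the shares to set beside it were those of all genes. They were 2.24% higher and 1.36% lower in HN4_CR, and 5.48% and 1.80% in HN30_CR. Of 9 receptors and binding proteins of interleukin-1 and interleukin-18, 1 was higher (IL1R2) and 1 lower (IL18R1) in HN4_CR, both against a signal not well above background, and 0 passed in HN30_CR. The list medians were 0.33 in both lines. IL1R1, the signalling receptor of interleukin-1, read -3.63, -2.75, -2.69 and -2.31 on HN4, HN4_CR, HN30 and HN30_CR, with differences of 0.88 and 0.38. IL1RAP, the chain it pairs with, differed by -0.14 and 0.33. IL1R2, a decoy receptor that binds the ligand without signalling, was well above background only on HN4_CR, where it read -3.99 and was at least 1.71-fold higher than on HN4. IL18R1, the receptor of interleukin-18, was well above background on HN4 and HN30_CR and not on the other 2 arrays. It was at least 1.87-fold lower in HN4_CR than in HN4 and at least 1.98-fold higher in HN30_CR than in HN30, and its 2 other probes were not well above background on the HN4 arrays.

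**Figure D3:**
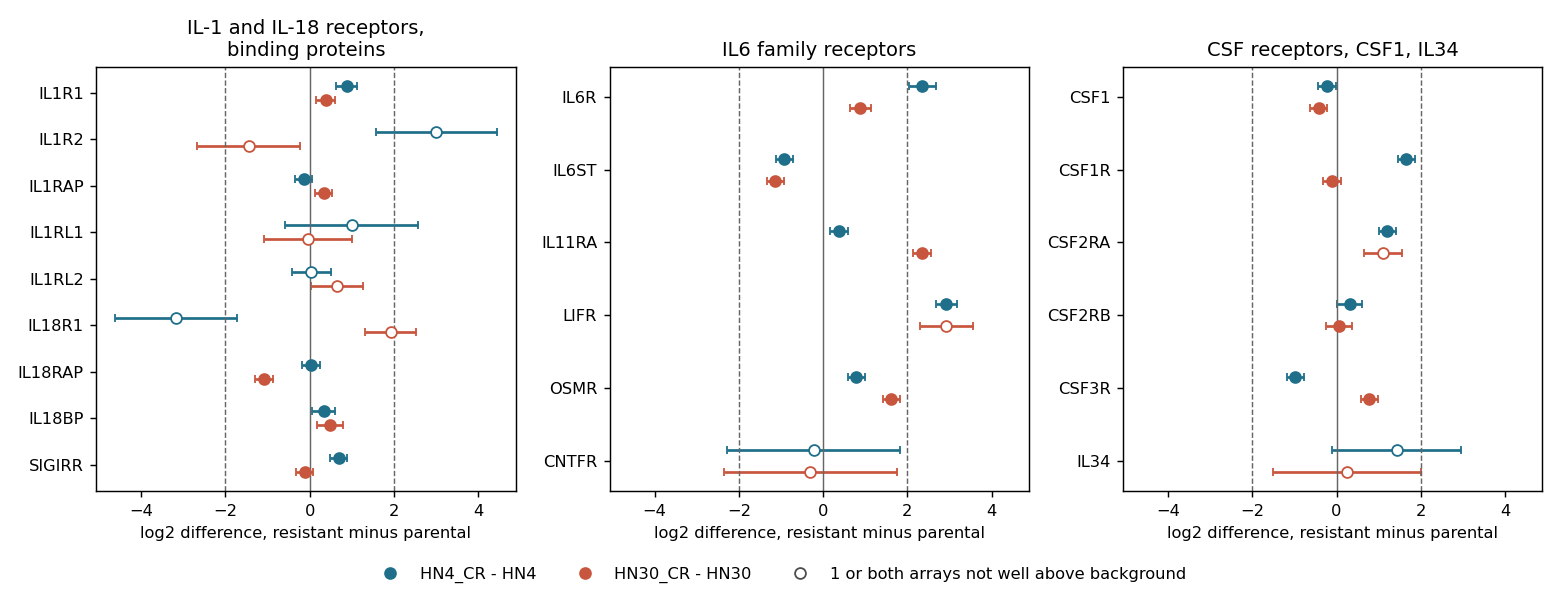
Log2 difference between the resistant and the parental array (x axis) for receptors and related genes (y axis) in 3 lists, with scanner SD as bars, dashed lines at -2 and 2, and open points where 1 or both arrays were not well above background. In the IL6 family panel, LIFR stands at 2.92 in HN4_CR, its HN30_CR point is open because HN30 was not well above background, and IL6ST stands at -0.92 and -1.13.

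In each line, 4 of 6 receptor genes of the IL6 family had a positive difference by the probe that represents them, as the plot of receptor differences shows. Of the 6 genes, 2 were higher in HN4_CR (LIFR and IL6R) and 2 in HN30_CR (LIFR and IL11RA), where 2.24% and 5.48% of all genes were higher. In neither line was any of the 6 lower. The list median was 0.58 in HN4_CR and 1.25 in HN30_CR. LIFR, the receptor of LIF, read -3.71 on HN4, -0.79 on HN4_CR and -2.70 on HN30_CR, and was not well above background on HN30. Its log2 difference was 2.92 in HN4_CR, and it was at least 3.81-fold higher in HN30_CR than in HN30, a bound under the threshold, so that its count in HN30_CR rested on the dim HN30 signal. IL6R, the ligand-binding chain for interleukin-6, read -4.45, -2.09, -3.33 and -2.44, with differences of 2.35 and 0.88. A second IL6R probe gave 1.34 and 1.15, the latter against a dim HN30 signal, so the count of IL6R in HN4_CR rested on the choice of probe. IL11RA, the ligand-binding chain for interleukin-11, read -2.25, -1.88, -2.83 and -0.49, with differences of 0.37 and 2.34. HN30_CR was the highest array for both IL11 and IL11RA. Other pairs did not match in this way: IL6 and IL6R differed in opposite directions in both lines. LIF and LIFR did so in HN30_CR but not in HN4_CR.

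IL6ST, the shared chain gp130, went the other way and read 2.81, 1.89, 2.75 and 1.62, with differences of -0.92 and -1.13. All 7 of its probes gave negative differences in both lines. OSMR, the receptor of oncostatin M, had 2 probes that disagreed in sign, with 0.79 and 1.62 for one and -0.94 and -0.95 for the other in HN4_CR and HN30_CR. Of the 5 other ligands of this family, OSM (oncostatin M) was higher in HN30_CR, reading -4.47 on HN30 and -1.84 on HN30_CR, a difference of 2.63, and 0 of 5 passed in HN4_CR. A second OSM probe, well above background on HN30_CR alone, gave 1.37 there, under the threshold. Of 9 genes of JAK-STAT3 signalling, 0 passed in either line, and SOCS3, a feedback inhibitor induced by STAT3, differed by 0.56 and 0.53.

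Of 6 genes of the colony-stimulating factor receptors and the ligands CSF1 and IL34, 0 passed the threshold in either line. CSF2RA, the ligand-binding chain for GM-CSF, read -1.39 on HN4 and -0.19 on HN4_CR, a difference of 1.21. It was not well above background on HN30 and read -3.88 on HN30_CR. CSF2RB, the signalling chain, differed by 0.31 and 0.06. CSF3R, the receptor of G-CSF, read -0.23, -1.21, -0.37 and 0.41, with differences of -0.98 and 0.78.

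Genes that act before and after these cytokines were counted in the same way, where 2.24% of all genes were higher in HN4_CR and 5.48% in HN30_CR. Of 11 genes of the inflammasome and interleukin-1 processing, 2 were higher in HN4_CR (NLRC4 and NLRP3, both sensors that activate caspase-1) and 1 in HN30_CR (NLRP3), and 0 were lower. NLRP3 was too dim to stand well above background on HN4 and on HN30, and it was at least 5.57-fold higher in HN4_CR and at least 1.41-fold higher in HN30_CR. A second NLRP3 probe gave 1.92 in HN4_CR, under the threshold and against a dim HN4 signal. It was not well above background on either HN30 array. NLRC4 was at least 2.29-fold higher in HN4_CR, and a second NLRC4 probe was not well above background on any array. The counts of NLRC4 in HN4_CR and of NLRP3 in HN30_CR rested on the dim parental signals, since these bounds lie under the threshold. CASP1, the protease that matures IL1B and IL18, differed by 0.19 and -0.29. Of 11 genes of interleukin-1 receptor signalling, 1 was lower in HN4_CR, IRAK3, an inhibitory kinase of the pathway. It read -0.95, -4.48, -0.80 and -2.12, with differences of -3.53 and -1.32, and both resistant arrays lay below both parental arrays. Of 6 other ligands of the interleukin-1 family, 1 was higher in HN4_CR, IL36RN, the antagonist of the IL36 receptor. It was well above background only on HN4_CR and was at least 3.73-fold higher there than on HN4, a bound that also lies under the threshold. IL1RN and IL36RN, both receptor antagonists, thus had HN4_CR as their highest array.

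Of 14 NF-kappaB factors and inhibitors, 0 passed in HN4_CR and 2 were lower in HN30_CR, and the list median was 0.38 in HN4_CR and -0.70 in HN30_CR. Of all genes, 2.24% were higher in HN4_CR, and 5.48% were higher and 1.80% lower in HN30_CR. NFKB1, the p50 subunit, read 3.28, 2.48, 3.37 and 0.66, with differences of -0.81 and -2.71. TNFAIP3, a feedback inhibitor, differed by 1.37 and -2.27. Of 9 AP-1 and C/EBP factors, 3 were higher in HN4_CR and 1 in HN30_CR. FOSB differed by 2.79 in HN4_CR and 2.37 in HN30_CR, FOS by 2.84 and 0.67, and JUN by 2.08 and 0.12. Of 10 factors that bind or degrade cytokine mRNAs, 0 passed in either line by the probes that represent them. HNRNPD stood at -1.85 in HN30_CR by that probe, and its second probe stood past the threshold at -2.36.

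**Figure D4:**
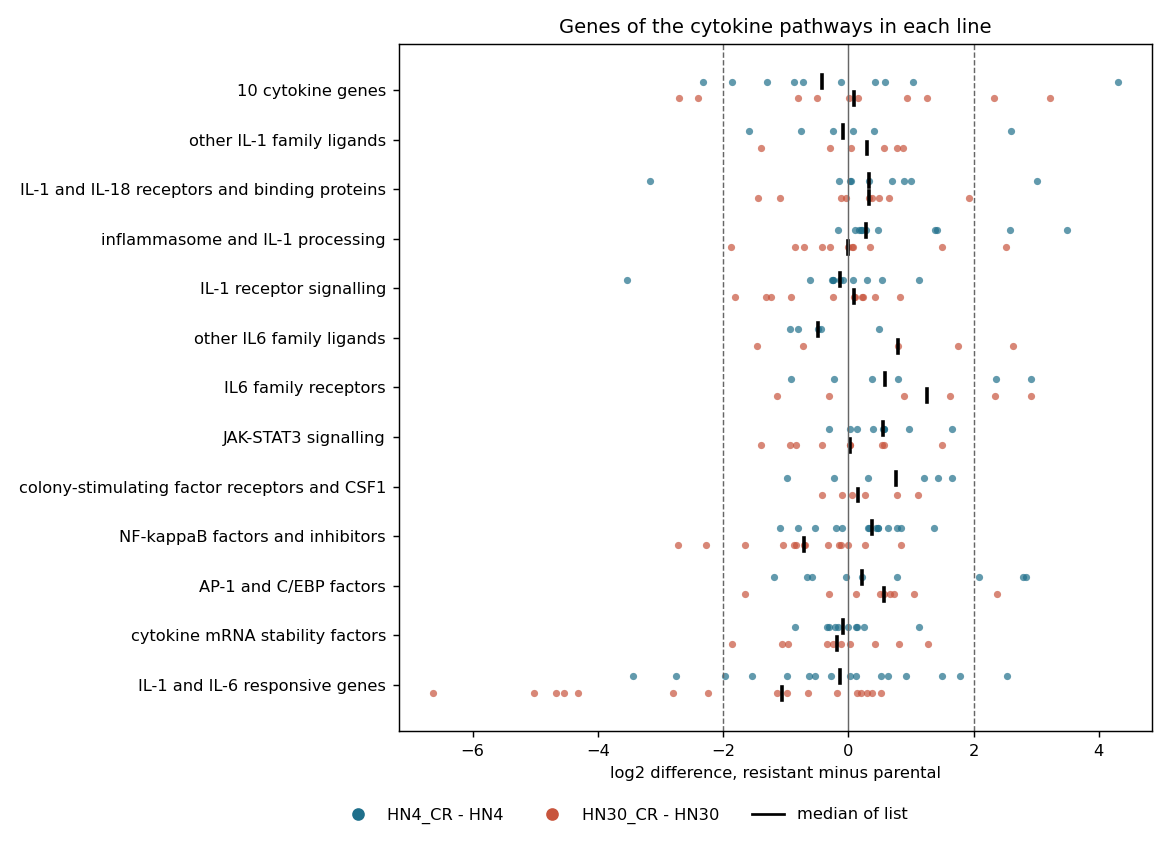
Log2 difference of each gene (points, x axis) between the resistant and the parental array in 13 lists of genes (y axis), with the median of each list as a vertical mark and dashed lines at -2 and 2. The responsive genes reach down to -6.63 in HN30_CR, below all 10 cytokine genes.

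Of 16 genes known to respond to interleukin-1 and interleukin-6, 1 was higher and 2 lower in HN4_CR, where all genes gave 2.24% and 1.36%. In HN30_CR, 0 were higher and 7 lower, against 5.48% and 1.80% of all genes. The list median was -0.13 in HN4_CR and -1.05 in HN30_CR, as the plot of all lists shows. The lower genes in HN30_CR were mostly chemokines. CXCL8, which attracts neutrophils, read 2.49, 0.96, 3.57 and -3.07, with differences of -1.53 and -6.63. CCL2, which attracts monocytes, differed by -3.43 and -5.01, and CXCL1 by -2.75 and -4.66. CXCL2 differed by -4.55 in HN30_CR, and its 2 probes disagreed in HN4_CR, with 0.12 and -1.94. CCL20 and CXCL3 differed by -4.31 and -2.80 in HN30_CR. S100A8, a calcium-binding protein of inflamed epithelium, differed by 1.49 and -2.25, and its partner S100A9 was the higher gene of HN4_CR at 2.53.

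**Figure D5:**
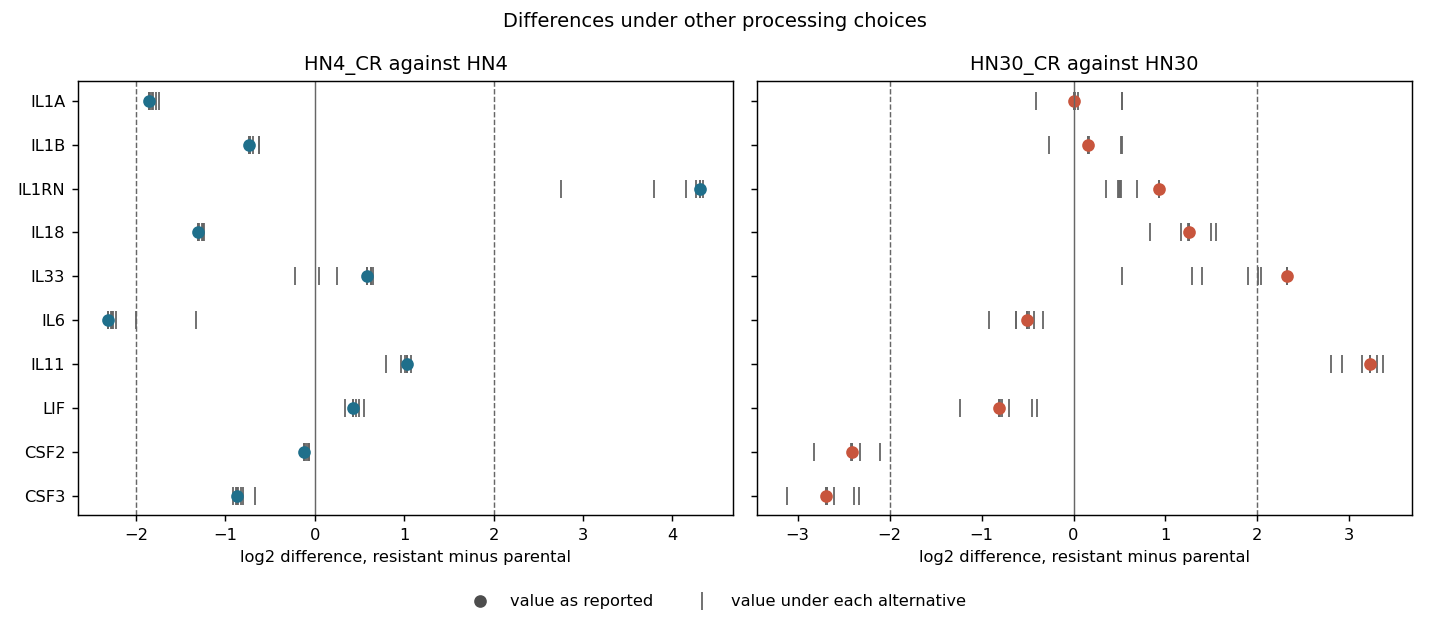
Log2 difference of each cytokine gene (y axis) between the resistant and the parental array (x axis) as reported (circles) and under each other processing choice (vertical ticks), with dashed lines at -2 and 2. IL1RN in HN4_CR stays above 2 at 2.75 to 4.35, and IL33 in HN30_CR ranges from 0.53 to 2.32.

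The plot of processing choices shows how far each value moved. IL11 in HN30_CR ranged from 2.80 to 3.36, CSF2 from -2.83 to -2.11 and CSF3 from -3.12 to -2.34, and these 3 genes stayed past the threshold throughout. IL1RN in HN4_CR did too. IL6 in HN4_CR ranged from -2.32 to -1.33 and IL33 in HN30_CR from 0.53 to 2.32, and both crossed the threshold.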

How the data were processed

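Total RNA of HN4, HN4_CR, HN30 and HN30_CR (1 array each) was labelled with Cy3 and hybridised to 1-colour Agilent whole-genome arrays. The authors deposited the scanner intensity of each spot as written by Agilent Feature Extraction 10.7.1.1, with background subtracted. They also deposited a log2 value table whose columns had the same distribution on each array (median 4.65). The sources used here do not say how that table was normalized. It served as an alternative only.

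Control spots and outlier spots were dropped, repeated spots were averaged per probe, and the log2 intensity minus the 75th percentile of the array was used. Probe positions are those of the files (hg19). All 14 probes matched RefSeq (GRCh38.p14) by accession under the same symbol. With 1 array a group there was no test of a resistant line against its parental line. limma 3.58.1 (R 4.3.3) was fitted over both lines, with the cell line as a block, on the 29521 genes with a signal well above background somewhere, after being tested on simulated data. Python 3.11.15, numpy 2.4.6, pandas 2.3.3 and matplotlib 3.10.9 were used. The 10 cytokine genes were named with every probe. Of the other lists, the main receptors of the cytokines and genes past a log2 difference of 2, at most the 6 largest of a list, were named, with SOCS3, CASP1, OSMR, S100A8, S100A9, HNRNPD and the cell type markers added after their values were seen. Some listed genes are not reported here. The members and lists were chosen with earlier results of these data known. Alternatives were background correction (normexp, offset 50), scaling, a pseudocount of 16, the value table, outlier spots, choice of probe, dim signals and the threshold. The number of arrays limits the precision.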

Additional observations from a re-analysis of the deposited data

Results flagged for a closer look

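IL18 and LIF stood out because their 2 lines went opposite ways, each by more than 2 scanner SDs of the probe that represents the gene. IL18 differed by -1.30 on the log2 scale in HN4_CR against HN4 and by 1.26 in HN30_CR against HN30. LIF differed by 0.42 in HN4_CR and by -0.81 in HN30_CR by its brighter probe. The dimmer LIF probe gave 0.25 in HN4_CR with a scanner SD of 0.223, which is under 2 SDs, and -0.60 in HN30_CR. With quantile normalization LIF gave -0.40 in HN30_CR, also under 2 SDs, while IL1A (-1.78 in HN4_CR and 0.53 in HN30_CR) and IL1B (-0.62 and 0.53) went opposite ways by more than 2 SDs, so which genes stood out depended on the processing. With 1 array a group, no test of this difference could be made, so it was not tested.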

How the results depend on the processing

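The arrays hold 1 culture a group, so the limits below concern processing only. No paired analysis by replicate number was possible because each group holds replicate 1 alone. The limma fit did pair each resistant array with its parental array through the cell line, and without that term it called 0 genes too. Of 198 differences of a cytokine gene in a line under an alternative, 164 moved by less than the scanner SD, 34 moved by more, and 0 of those past the threshold changed sign. Many of the 164 did not move at all, which raises that number. Keeping outlier spots, restricting the probes by transcript record and requiring both arrays well above background changed none of the values. Dim signals at their bound changed IL33 alone, and the mean of all probes changed only genes with 2 probes. The number of cytokine genes past the threshold in HN4_CR was 2. It was 1 with the mean of all probes, where IL6 was lost, and 5 with a threshold of 1. In HN30_CR it was 4, and 3 without IL33 under normexp, median scaling, the pseudocount, dim signals at their bound, and probes well above background on both arrays. The median of the cytokine genes in HN4_CR was -0.43, and -0.73 over those well above background on both arrays. In HN30_CR it was 0.08, -0.34 with median scaling, 0.51 with quantile normalization and 0.51 in the deposited value table. limma called 0 genes in every alternative, with 2163 to 3261 genes at an unadjusted p under 0.05 (2537 as reported). The mean over both lines changed sign for IL1A and IL1B without the HN4 pair (0.0105 and 0.154), for IL18 with quantile normalization (0.15) and without the HN4 pair (1.26), and for LIF with quantile normalization (0.0743) and without the HN30 pair (0.42). Leaving out 1 pair gave -1.86 to 0.01 for IL1A, -0.73 to 0.15 for IL1B, 0.93 to 4.31 for IL1RN, -2.32 to -0.50 for IL6, 1.04 to 3.22 for IL11, -1.30 to 1.26 for IL18, 0.59 to 2.32 for IL33, -0.81 to 0.42 for LIF, -2.41 to -0.12 for CSF2 and -2.70 to -0.87 for CSF3, values with no test.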
